A study of Mus musculus with 4 samples.

Results

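Cluster 6 held the 1802 cells, of 32439 in all, to which the authors' deposited clustering gave the number 6 and the class mature luminal. Membership was read from the deposited cluster number of each cell and no cell was added or removed. It was 1 of 8 mature luminal clusters among 13 clusters and held 7.57% of the 23800 mature luminal cells.

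The cells came from mammary glands of C57BL/6N mice at 6 weeks of age, which is during puberty. The WT pool carried Erbb3+/+;MMTV-Cre and the mutant pool carried Erbb3V943R/V943R;MMTV-Cre, in which a valine of the pseudokinase domain of ERBB3 is replaced by arginine (V943R) after recombination. Glands of 3 mice were pooled for each genotype, digested with collagenase, enriched for epithelial cells and sorted by flow cytometry for luminal cells, and each pool gave 2 libraries on the 10x Chromium 3′ v2 platform. These are WT A, WT B, V943R A and V943R B below. Both genotypes carried the MMTV-Cre transgene, whose viral promoter drives Cre in mammary epithelium, and whether a given cell had recombined was not measured. With 1 pool per genotype there is no replicate of mice, so the spread between libraries of a pool is technical and no test between genotypes was made. The clusters were built from the same values that are described here, so differences between clusters are descriptions without a test.

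Mature luminal cells are the hormone sensing cells of the mammary duct and express the estrogen and progesterone receptors, while luminal progenitors are their hormone receptor negative counterparts and give rise to milk producing cells. In dividing cells, E2F factors drive genes of DNA replication at the start of S phase, and complexes built on MuvB with B-MYB and FOXM1 drive genes of mitosis later in the cycle. Cyclin B with CDK1 starts mitosis, and the anaphase promoting complex with its activators CDC20 and CDH1 ends it by destroying cyclins and other mitotic proteins.

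The promoters of genes that set cluster 6 apart from its cycling neighbour, cluster 5, are shown first, as examples of motifs whose shares over the whole S phase and G2 and mitosis lists follow below. The sequences are RefSeq's for GRCm38.p6, 5′ to 3′ on the strand of the gene, and capitals mark motifs found by a script on either strand. In the 4 genes of G2 and mitosis the capitals are CCAAT, which reads ATTGG on the opposite strand, and the cell cycle genes homology region, CHR, searched as TTTGAA, which reads TTCAAA on the opposite strand, and in a second form as TTCGAA. They were chosen as genes higher in cluster 6 than in cluster 5 whose promoters hold both motifs. The stretches are Cdc20 at chr4:118437344-118437406 on the minus strand, Gas2l3 at chr10:89443968-89443994 on the minus strand, Ccnb2 at chr9:70421561-70421731 on the minus strand and Ube2c at chr2:164769691-164769915 on the plus strand.
Cdc20: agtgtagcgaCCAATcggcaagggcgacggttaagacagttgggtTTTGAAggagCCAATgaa
Gas2l3: tccggttctgATTGGctccTTCGAAac
Ccnb2: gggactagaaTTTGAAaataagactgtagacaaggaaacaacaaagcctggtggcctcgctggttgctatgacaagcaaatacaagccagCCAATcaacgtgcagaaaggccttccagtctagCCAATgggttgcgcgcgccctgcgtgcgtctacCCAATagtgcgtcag
Ube2c: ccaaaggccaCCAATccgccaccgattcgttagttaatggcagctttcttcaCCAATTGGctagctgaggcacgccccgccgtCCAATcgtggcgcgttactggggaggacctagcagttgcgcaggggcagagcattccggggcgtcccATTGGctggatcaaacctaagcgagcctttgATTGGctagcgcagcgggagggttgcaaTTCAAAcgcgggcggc

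In 3 S phase genes that were lower in cluster 6 than in cluster 5, chosen because their promoters hold the motif, the capitals mark E2F motifs, searched as TTTCGCGC, TTTGGCGC, TTTCCCGC or TTTGGCGG on both strands. The stretches are Cdc6 at chr11:98908003-98908030, Hells at chr19:38930918-38930945 and Mcm5 at chr8:75109346-75109377, all on the plus strand. In the promoter of Mcm5 a pair of matches on opposite strands overlaps.
Cdc6: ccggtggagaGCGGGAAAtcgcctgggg
Hells: accaccgggtTTTCCCGCgaaagagaag
Mcm5: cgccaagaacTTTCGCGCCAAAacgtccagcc

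Over promoters of 300 bases, 250 before and 50 after the start, CHR letters stood in 38 of 52 promoters (73.1%) of the G2 and mitosis list, in 6 of 34 (17.6%) of the S phase list and in 19.2% of all 32851 promoters. E2F letters stood in 7.69%, 35.3% and 2.37% in the same order. CCAAT stood in 75%, 67.6% and 37.4%, and CCAAT together with CHR in 59.6%, 11.8% and 7.52%. RefSeq promoters matched 47 of the 54 genes of the G2 and mitosis list and 31 of the 43 S phase genes. Neighbouring matches of different motifs can share letters, and a match says only that the letters are present.

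The library values behind the text were summed unique molecular identifiers (UMIs), each of which stands for 1 captured RNA molecule, given as CPM, the UMIs of a gene scaled to a fixed total of UMIs of the same cells. Cluster 6 held 11094165 UMIs, between 2655963 and 2952679 per library. Its cells had a median of 5098 UMIs and 2405.5 genes, and the library medians were 4250 UMIs in WT A, 5510 in WT B, 5455 in V943R A and 5492 in V943R B. A cluster 5 cell had a median of 5254.5 UMIs, a cluster 7 cell 4010.5 and a cluster 2 cell 3641. The median share of mitochondrial UMIs in cluster 6 was 0.245%. Over the whole series 511 cell barcodes occurred in more than 1 library, and 64 cells of cluster 6 carried such a barcode.

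The 4 markers of the label were present together in cluster 6. Mki67 (chr7:135689784-135716361, minus strand), which encodes the proliferation antigen Ki-67, stood at 183, 153, 135 and 173 CPM in WT A, WT B, V943R A and V943R B. The level was 161 CPM over all libraries against 3.45 in cluster 7, a mature luminal cluster with little expression of cycle genes, which is a log2 ratio of 5.54 (95% interval 5.22 to 5.89). It was 61.9 CPM in cluster 5 and 255 CPM in cluster 2, the cycling cluster of the luminal progenitor class. All intervals cover counting error only. Every library of cluster 6 therefore lay above all libraries of clusters 5 and 7.

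Top2a (chr11:98992943-99024189, minus strand), the DNA topoisomerase that untangles sister chromatids, stood at 494, 478, 462 and 447 CPM in the same order of libraries. Cluster 7 had 12.2 CPM, cluster 5 had 306 and cluster 2 had 600. Top2a was thus far above cluster 7 with a log2 ratio of 5.27, and its ratio to cluster 5 of 0.62 was under the 2-fold limit used for calls below.

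The identity markers set cluster 6 apart from the progenitor cluster. Cited1 (chrX:102247381-102252181, minus strand), a transcriptional coregulator of estrogen receptor signalling, stood at 2340, 2402, 1801 and 1768 CPM. It averaged 2082 CPM in cluster 6 against 350 CPM in cluster 2, a log2 ratio of 2.57, while clusters 5 and 7 had 2359 and 1363 CPM. Upk3a (chr15:85017141-85022547, plus strand), a uroplakin of the apical membrane, stood at 6601, 6666, 5424 and 5454 CPM. Its log2 ratio to cluster 2 was 2.84, with 842 CPM there, against 6666 CPM in cluster 5 and 4006 CPM in cluster 7. In both genes the 2 mutant libraries were below the 2 WT libraries.

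**Figure D1:**
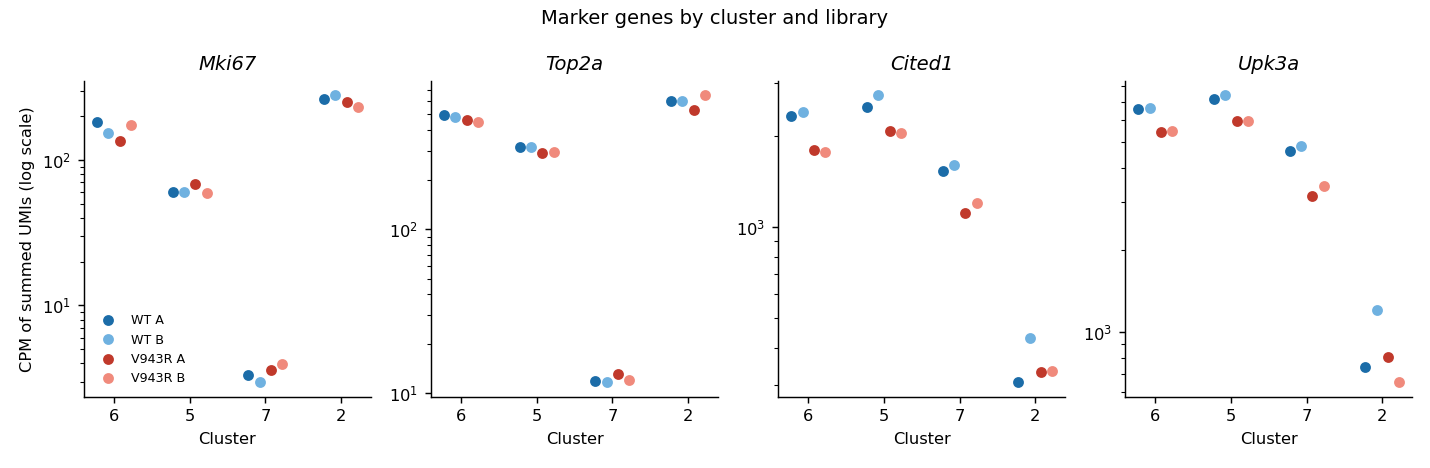
Levels of the 4 marker genes in clusters 6, 5, 7 and 2, with the cluster on the x axis, CPM of summed UMIs on a logarithmic y axis and 1 point for each library. Mki67 and Top2a stand far above cluster 7 in cluster 6, and Cited1 and Upk3a stand above cluster 2.

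The same markers were seen in single cells. Of the cluster 6 cells 51.6% had a UMI of Mki67 and 56.9% a UMI of Top2a, and 97.1% and 96.7% had a UMI of Cited1 and Upk3a. After each cell was thinned to 1000 UMIs these shares were 13.6%, 28.3%, 78.5% and 89.9%. In the same order cluster 5 had 24.3%, 59.3%, 96.8% and 93.7%, or 6.56%, 22.9%, 78.6% and 85.4% after thinning. Cluster 7 had 1.58%, 4.97%, 79.1% and 80.4%, or 0.411%, 1.07%, 53.6% and 63.6% after thinning. Thus the shares of Top2a, Cited1 and Upk3a before thinning were close in clusters 6 and 5. Cluster 13, an immune cluster that should lack Upk3a, had a median of 1869 UMIs per cell. In it 30.5% of cells had an Upk3a UMI and 16.3% after thinning. The source of these UMIs, such as free RNA or doublets, was not tested. Cdc20 was found in 78.4% of the cells, against 17.7% in cluster 5 and 3.80% in cluster 7, and thinned shares were 38.0%, 3.31% and 0.863%. The replication gene Mcm5 went the other way, with 24.0% in cluster 6 and 71.0% in cluster 5, or 4.40% and 21.3% after thinning. The thinned Mcm5 share was 1.17% in cluster 7 and 5.0% in cluster 13, whose cells may express Mcm5 themselves.

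Cluster 6 made up 5.43% of the cells of WT A, 5.0% of WT B, 6.03% of V943R A and 5.97% of V943R B, from 523, 451, 413 and 415 cells. The WT share was 5.23% (95% interval 4.91 to 5.56) and the mutant share 6.00% (5.61 to 6.41), a ratio of 1.15 (1.05 to 1.26), with both mutant libraries above both WT libraries. Of mature luminal cells the shares were 6.86% and 8.61%. Cluster 11, another mature luminal cluster, held 1454 and 1409 cells in the WT libraries and 321 and 349 cells in the mutant libraries, so it weighs on every share of all cells. Of the cells outside cluster 11 cluster 6 took 6.17% of the WT and 6.31% of the mutant pool, which is a ratio of 1.02 (0.934 to 1.12), and the libraries, which ran from 5.93% to 6.40%, overlapped between genotypes. Thus the higher share in the mutant was seen with cluster 11 in the denominator and not without it. Clusters 2, 5 and 7 also had higher shares of all cells in the mutant, at ratios of 1.24, 1.10 and 1.18. In each of them both mutant libraries lay above both WT libraries, so this was not particular to cluster 6. The intervals cover counting error only, with 1 pool per genotype.

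Genes of G2 and mitosis separated cluster 6 from cluster 7, and the question was how far the pair differed beyond that program. A gene was called between clusters when its level differed at least 2-fold, it had 50 or more UMIs in the cluster with more, and the libraries of the clusters did not overlap. Of 12664 genes, 595 (4.7%) were called higher and 138 (1.09%) lower in cluster 6 than in cluster 7, or 521 and 208 with TMM factors, another scaling of the libraries. Of the 54 genes of the G2 and mitosis list 53 were called higher, and the exception was Ctcf, a chromatin insulator protein, at a log2 ratio of 0.84. The median log2 ratio of the list was 4.75, against 0.05 over all genes tested. Summed over the list, the level was 12421, 12174, 11103 and 11717 CPM in the cluster 6 libraries and 1412 to 1483 CPM in those of cluster 7.

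The cyclins and kinases of mitosis were far above cluster 7. Ccnb1 (cyclin B1) reached 146, 153, 114 and 128 CPM in cluster 6 and 1.05 CPM in cluster 7, from 24 UMIs there, a log2 ratio of 7.01 (6.43 to 7.66). Nusap1, a spindle protein, reached 241, 242, 201 and 206 CPM against 1.70, a log2 ratio of 7.03. Every cluster 6 library of both genes lay far above the cluster 7 libraries. Plk1, the polo kinase of mitotic entry, was at 164, 154, 140 and 145 CPM with a log2 ratio of 6.75. Ccna2 (cyclin A2), at 151, 150, 120 and 130 CPM, had a log2 ratio of 6.27, and Cdk1, at 357, 355, 345 and 306 CPM, one of 4.43. Of the 12 mitotic cyclins and kinases 11 were called higher, and Wee1, which holds CDK1 inactive, was not, at 47.5 against 43.5 CPM.

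The other genes with the largest ratios to cluster 7 were Kif14, a kinesin of cytokinesis (6.83), Troap (6.78), Hmmr, a spindle protein (6.76), Arhgef39 (6.70), Bub1, a spindle checkpoint kinase (6.64), and Esco2, which acetylates cohesin (6.61). Pif1, a DNA helicase, had the largest ratio, 7.29, but cluster 7 held 2 UMIs of it and the interval ran from 5.42 to 10.35. Of the kinetochore and checkpoint genes 17 of 18 were called higher, with a median of 4.85. Of the condensin and cohesin genes 12 of 17 were called higher, with a median of 2.46.

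The replication genes were raised to a lesser degree. Of 43 S phase genes 29 were called higher than in cluster 7 and none lower, with a median log2 ratio of 1.39. Rrm2, the small subunit of ribonucleotide reductase, stood at 79.1, 94.8, 90.7 and 89.4 CPM against 6.51, a log2 ratio of 3.77. Mcm5, a subunit of the replicative helicase, stood at 58.4, 44.4, 50.8 and 50.6 CPM against 14.7, a log2 ratio of 1.79, while Ung, a uracil DNA glycosylase, was level at 9.37 and 9.56 CPM. The higher genes numbered 20 of 34 for replication licensing and fork genes, 8 of 19 for nucleotide synthesis and 8 of 16 for cell cycle transcription factors, with none lower. None of the 8 G1 cyclins and kinases tested was called, and none of 20 ribosome biogenesis genes, whose median ratio was 0.17. The histone genes of the Hist clusters had 15 of 30 called higher and 1 lower, with Hist1h2ao at 25.3 against 0.349 CPM (log2 ratio 6.18) and Hist1h1b at 42.3 against 1.44 CPM (4.88).

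Of the identity lists, 2 of 10 progenitor genes tested, Elf5 (log2 ratio -1.34) and Itga2, an integrin (-1.30), were called lower than in cluster 7. The other progenitor genes did not follow, since 7 of the 10 had a ratio above 0 and the median was 0.32, and 1 gene was called lower whichever library was left out. None of the 13 mature luminal genes tested was called in either direction, with a median of -0.17. Of the 14, 1 gene, Tnfsf11 (RANKL), had no UMI in cluster 6, which allows up to 3 UMIs in its total. Clusters 2, 5 and 7 likewise had 1 gene of this list without a UMI. Esr1, the estrogen receptor, stood at 36.1, 41.7, 34.1 and 45.1 CPM in cluster 6, a log2 ratio to cluster 7 of -0.15. Pgr, the progesterone receptor, stood at 106, 120, 121 and 140 CPM with a ratio of -0.32, and Prlr, the prolactin receptor, was at 1113 against 1699 CPM. Etv4 and Etv5, ETS factors induced by ERK signalling, were the 2 of 10 ERK feedback genes called higher, at log2 ratios of 1.70 and 1.82. All 10 dissociation stress genes had a ratio below 0, with a median of -0.44, and none was called. The summed level of that list was 13366 to 15945 CPM in cluster 6 and 17819 to 21700 CPM in cluster 7, and its part in the ratios was not tested.

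The genes with the largest ratios below cluster 7 were as follows, several of them from few UMIs. Ivl (involucrin) stood at 0.377, 3.73, 6.89 and 9.16 CPM in cluster 6 and 50.05 in cluster 7, a log2 ratio of -3.31 (-3.72 to -2.92). Sprr1a, another envelope precursor, stood at 21.8, 23.0, 54.8 and 18.7 CPM against 238, a log2 ratio of -3.01, and V943R A was the highest library of cluster 6. Lce6a, of the late cornified envelope family, had a log2 ratio of -2.46, and the lactate transporter Slc16a3, the secretoglobin Scgb3a1 and the protease Tmprss6 had -2.72, -2.69 and -2.63. Klk7 and Klk8, kallikrein proteases, had 3 UMIs each in cluster 6 and ratios of -4.36 (-6.66 to -2.78) and -3.25, and Psca and 2210017I01Rik had 2 UMIs each. In cluster 5 Sprr1a was at 23.8 CPM, close to its level in cluster 6.

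**Figure D2:**
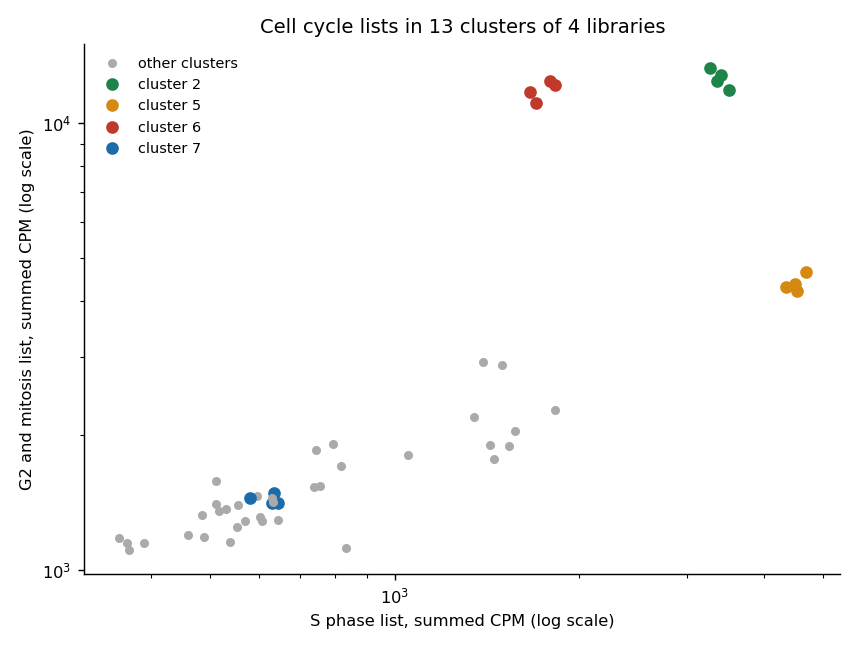
Summed CPM of the S phase list on the x axis and of the G2 and mitosis list on the y axis, both logarithmic, with 1 point for each of 13 clusters in each of 4 libraries. On the G2 and mitosis axis the points of cluster 6, at 11103 to 12421 CPM, overlap with those of cluster 2, at 11869 to 13288 CPM. Both mutant points of cluster 6 lie below all points of cluster 2. On the S phase axis cluster 6 lies at 1665 to 1824 CPM, left of clusters 5 and 2.

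Clusters 5 and 6 were the mature luminal clusters with high cycle genes, and the comparison shows which cycle genes stood higher in each. The phase of a cell was not measured, and 54.2% of thinned cluster 5 cells passed the G2 and mitosis limit described below. Cluster 6 had more of the genes of mitosis and cluster 5 more of the genes of replication. The S phase list summed to 1794, 1824, 1699 and 1665 CPM in the cluster 6 libraries and 4348 to 4690 CPM in those of cluster 5. The G2 and mitosis list summed to 11855 CPM in cluster 6 over all libraries and 4202 to 4636 CPM in cluster 5. In the 9 clusters other than 2, 5, 6 and 7 the G2 and mitosis list ran from 1106 to 2916 CPM and the S phase list from 354 to 1823 CPM.

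Of 11059 genes 172 (1.56%) were called higher and 149 (1.35%) lower in cluster 6 than in cluster 5, or 160 and 163 with TMM factors, which turns the balance. Of the G2 and mitosis list 35 of 54 genes were called higher and none lower, with a median log2 ratio of 1.40 against 0.04 over all genes. Only Cbx5, a heterochromatin protein, had a ratio below 0 in that list (-0.39). Of the S phase list 34 of 43 were called lower and none higher, with a median of -1.34, and all 43 had a ratio below 0.

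Several of the genes highest against cluster 5 act in mitosis and in the exit from it. Cdc20 (chr4:118432901-118437352, minus strand), the activator of the anaphase promoting complex whose promoter is printed above, stood at 555, 519, 436 and 533 CPM against 40.8, a log2 ratio of 3.65 (3.49 to 3.81). Ube2c, the ubiquitin conjugating enzyme of that complex, stood at 971, 1014, 931 and 898 CPM against 156, a log2 ratio of 2.61. Cenpa, the centromere histone, stood at 720, 712, 638 and 691 CPM against 68.1, a log2 ratio of 3.34. The ranges of the libraries of both clusters were far apart for all of these.

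Cenpf, a kinetochore protein, stood at 494, 453, 377 and 454 CPM against 47.5 in cluster 5, a log2 ratio of 3.23. Ccnb2 (cyclin B2) stood at 563, 512, 470 and 557 CPM against 70.0, a log2 ratio of 2.91, and Ccnb1 had one of 3.06. Gas2l3, which links the cytoskeleton at cytokinesis, stood at 41.8, 49.1, 32.6 and 47.3 CPM against 4.46, a log2 ratio of 3.26. Cdkn3, a phosphatase that acts on cyclin dependent kinases, had a ratio of 3.70 and Aspm, a spindle pole protein, one of 3.24. Neurl1b, a ubiquitin ligase, reached 3.92 from 4 UMIs in cluster 5, and Pif1 5.83 from 2 UMIs (interval 3.95 to 8.89). Gm7856, a processed pseudogene, had a ratio of 3.96, and as pseudogene reads can come from a parent gene this value is uncertain.

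Other mitosis genes differed less between the clusters. Plk1 had a log2 ratio to cluster 5 of 2.80, Nusap1 of 1.84, Mki67 of 1.38 and Ccna2 of 1.35. Cdk1 was at 341 against 191 CPM, a ratio of 0.84, and Top2a at 0.62, and neither was called. Of the mitotic cyclins and kinases 8 of 12 were called higher, of the kinetochore and checkpoint genes 9 of 18, and of the condensin and cohesin genes 2 of 17, which were Rad21, a cohesin subunit (1.07), and Espl1, the separase that cleaves it (1.07).

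Among the largest ratios in the other direction were those of genes used at the start of S phase. Ung stood at 7.91, 10.5, 9.79 and 9.16 CPM in the cluster 6 libraries against 143 in cluster 5, a log2 ratio of -3.93 (-4.24 to -3.64). Ccne2 (cyclin E2) stood at 3.39, 4.06, 5.44 and 4.76 CPM against 46.5, a log2 ratio of -3.40. Cdc6, which loads the helicase on replication origins and whose promoter is printed above, stood at 4.14, 4.06, 6.17 and 1.83 CPM against 38.4, a log2 ratio of -3.24. Every cluster 6 library of these genes was far under cluster 5, though those of Cdc6 ranged from 1.83 to 6.17 CPM.

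E2f1, the transcription factor of S phase entry, stood at 13.2, 18.3, 12.3 and 13.2 CPM against 117 in cluster 5, a log2 ratio of -3.03. Ccne1 (cyclin E1) stood at 18.8, 19.6, 12 and 9.16 CPM against 98.6, a ratio of -2.72. The helicase subunits Mcm3 and Mcm5 had ratios of -2.56 and -2.26, Cdt1, a licensing factor, -2.27, Hells, a chromatin remodeller, and Rpa2, which binds single stranded DNA, -2.33 each, and Dna2, a nuclease of the replication fork, -2.36. Of the replication licensing and fork genes 23 of 35 were called lower and of the nucleotide synthesis genes 6 of 19, with none higher in either list. Rrm2 had a ratio of -1.65 and Pcna, the sliding clamp, one of -1.43.

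Some genes of nucleotide synthesis were level between the cycling clusters of this class. Tyms, thymidylate synthase, was at 118 CPM in cluster 6 and 130 in cluster 5, and Tk1, thymidine kinase, at 149 and 156 CPM. Rrm1, the large subunit of ribonucleotide reductase, had a ratio of -0.22. All 3 were called higher in cluster 6 than in cluster 7, with log2 ratios of 2.74, 3.96 and 3.01.

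**Figure D3:**
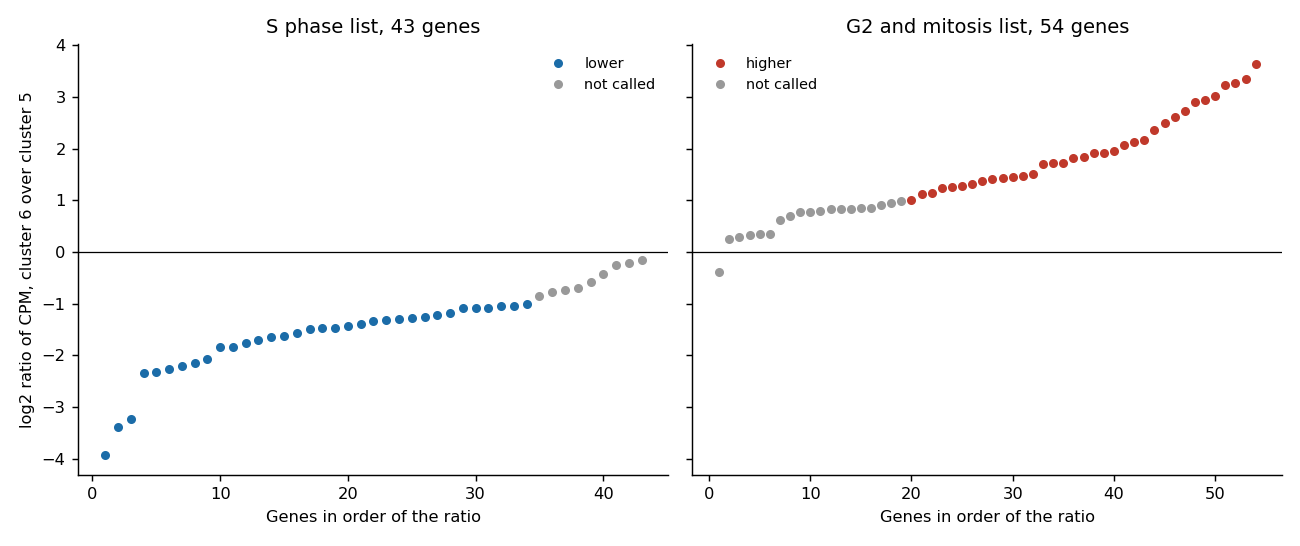
Log2 ratio of CPM, cluster 6 over cluster 5, on the y axis for the genes of the S phase and of the G2 and mitosis list in order of their ratio on the x axis, coloured by whether the gene was called. In the S phase panel all 43 genes lie below 0, and in the G2 and mitosis panel all but Cbx5 lie above 0.

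Regulators of the cycle differed in both directions. Foxm1, the factor of the mitotic program, stood at 27.9, 25.4, 26.8 and 22.7 CPM in cluster 6, 10.6 in cluster 5 and 0.655 in cluster 7, and was the only 1 of 17 cell cycle transcription factors tested that was called higher than in cluster 5, while 7 were called lower. Mybl2 (B-MYB) was lower, at 5.32 against 11.9 CPM. Cdkn2d, an inhibitor of the cyclin D kinases, stood at 165, 174, 152 and 144 CPM, with log2 ratios of 2.05 to cluster 7 and 1.00 to cluster 5. Ccng2, an atypical cyclin that restrains the cycle, had a ratio of 1.42 to cluster 5, and these were the 2 of 13 genes for CDK inhibitors and antiproliferative factors called there.

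No G1 cyclin or kinase was called higher than in any of the clusters compared, although 7 of 8 had a ratio above 0 to cluster 7, with a median of 0.33. Ccnd1 (cyclin D1) stood at 494, 515, 508 and 495 CPM in cluster 6, 561 in cluster 7 and 785 in cluster 5, and its log2 ratio to cluster 5 was -0.64. Ccnd3 stood at 82.1 CPM against 128 in cluster 5, 66.6 in cluster 7 and 75.1 in cluster 2. Ccnd2 had no UMI in either WT library and 5.44 and 5.13 CPM in V943R A and V943R B, but these were 15 UMIs in 1 cell and 14 UMIs in 4 cells, so the value rests on 5 cells. Of 7 genes tested from the list of G1 cyclins and kinases 3 were called lower than in cluster 5, namely Ccne1, Ccne2 and the phosphatase gene Cdc25a. Among the CDK inhibitors, Cdkn1a (p21) was at 230, 247, 267 and 260 CPM and level with cluster 5 (ratio 0.03), and Cdkn1b (p27) was at 44.4 CPM with ratios of 0.76 to both cluster 7 and cluster 5.

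No mature luminal gene of 12 tested was called between clusters 6 and 5, with a median ratio of 0.02, and none of 9 progenitor or 9 pan-luminal genes was. The stress list summed to 14787 CPM in cluster 6 and 13387 CPM in cluster 5. Ribosome biogenesis genes had a median ratio of -0.44 to cluster 5 with 1 of 20 called lower, Nolc1 (-1.18). Of 30 histone genes tested 2, Hist1h3d (1.56) and Hist1h3g (1.16), were called higher than in cluster 5 and none lower, with 20 ratios above 0 and a median of 0.25. Those far above cluster 7 had ratios below 0 to cluster 5 in several cases, with Hist1h1b at -0.57, Hist1h2ap at -0.42, Hist1h2ao at -0.37 and Hist1h1a at -0.93. Hist1h2bc gave the most histone UMIs, at 1050, 1010, 974 and 1045 CPM against 568 in cluster 5. The libraries were primed from poly(A), and replication histone mRNAs end without a poly(A) tail, so these levels cover only part of histone RNA.

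Cluster 2 cycles within the luminal progenitor class, so its cells differ from those of cluster 6 in class. As the S phase genes differed too, the calls cannot be assigned to class apart from cycle. The summed G2 and mitosis list overlapped between clusters 6 and 2, at 11103 to 12421 CPM and 11869 to 13288 CPM. Within each library cluster 6 was level in WT A and lower in WT B, V943R A and V943R B. In that order the sums were 12421, 12174, 11103 and 11717 CPM against 12414, 13288, 11869 and 12819 CPM. Of 11259 genes 770 (6.84%) were called higher and 939 (8.34%) lower in cluster 6 than in cluster 2, or 935 and 811 with TMM factors, which turns the balance of the calls. Of the 54 G2 and mitosis genes none was called higher and 1 lower. That gene was Lbr, the lamin B receptor, at 80.8 against 170 CPM (log2 ratio -1.07). The median of the list was -0.14, with -0.10 over all genes. Cdc20 stood at 510 and 530 CPM, Ccnb1 at 135 and 132, Cenpf at 444 and 397, and Ube2c at 955 and 790 CPM in clusters 6 and 2, all without a call.

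The S phase genes stood lower in cluster 6 than in cluster 2 as well, though not all reached a call. Of 42 S phase genes tested 20 were called lower and none higher, and all had a ratio below 0, with a median of -0.99. Ung had a log2 ratio of -2.70, Ccne2 of -2.44, E2f1 of -1.82 and Mcm5 of -1.58. The S phase list summed to 3275 to 3508 CPM in cluster 2, above every library of cluster 6. Of 33 replication licensing and fork genes 13 (39.4%) were called lower, against 8.34% of all genes. Of 19 nucleotide synthesis genes 2 (10.5%) were called lower and 3 had a ratio above 0. Wee1 was the 1 of 12 mitotic cyclins and kinases (8.33%) called lower (-1.18). The last 2 shares are near that of all genes, so they are not a result about these lists. Ccnd1 was lower, at 504 against 1030 CPM, and so was its partner kinase Cdk6, at 2.61 against 66.6 CPM.

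Inhibitors of the cycle differed between clusters 6 and 2. Cdkn1a, with a ratio of 1.77, and Cdkn2a, with a ratio of 2.19, were called higher in cluster 6 than in cluster 2, as were Cdkn2b, Ccng1 and Plk2. Cdkn2c, at 62.3 against 149 CPM, Ccng2 and Rb1, the retinoblastoma protein, were called lower. None of 18 kinetochore or 17 condensin and cohesin genes was called, yet only 4 and 1 of them had a ratio above 0. Their medians were -0.31 and -0.49, against -0.10 over all genes. The condensin and cohesin list summed to 1309 to 1450 CPM in cluster 6 and 1845 to 2055 CPM in cluster 2, without overlap. The kinetochore sums, 3159 to 3605 and 3518 to 4046 CPM, overlapped. Among ERK feedback genes 5 of 9 were called lower, with Etv5 at 5.23 against 51.0 CPM and Spry1, an inhibitor of receptor tyrosine kinase signalling, at 15.3 against 32.0 CPM.

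The genes of luminal identity gave the class. Of 12 mature luminal genes tested 11 were called higher in cluster 6 than in cluster 2, with a median of 2.04. Esr1 was at 39.3 against 11.5 CPM, Pgr at 122 against 22.5 CPM and Foxa1, a pioneer factor for the estrogen receptor, at 166 against 34.8 CPM. Areg, an EGFR ligand that mature luminal cells release, stood at 2702, 2974, 3188 and 3621 CPM in cluster 6 with a log2 ratio of 2.64. All 10 progenitor genes tested were called lower, with a median of -4.86. Kit, the receptor that marks progenitors, was at 4.51 against 158 CPM, Elf5, their lineage factor, at 8.38 against 249, and the milk genes Csn3 and Wfdc18 at 26.1 against 2384 and 173 against 10609 CPM. As the classes were named from such genes, this describes them and does not test them.

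Genes with large ratios to cluster 2 also lay outside the lists. Chn2, Npas3, Pdzrn3 and Plppr4 had the largest ratios downward, from 1 UMI each in cluster 6, with Chn2 at -8.29 (-13.61 to -5.79). Kcnn4, a potassium channel, was at 2.34 against 498 CPM, a log2 ratio of -7.73 (-8.35 to -7.17), and G0s2, an inhibitor of lipolysis, at 0.721 against 129 CPM (-7.49). Dcpp3, a secreted salivary protein family member, was at 46.7, 32.5, 38.1 and 24.9 CPM in cluster 6 with 2 UMIs in cluster 2, which gives a ratio of 6.14 (4.28 to 9.20). Nipal1, a magnesium transporter, had a ratio of 5.31 (2.80 to 10.63), from 1 UMI in cluster 2.

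RNA of other cell types was scarce in cluster 6. The 12 progenitor genes summed to 326 to 409 CPM in its libraries, against 15466 CPM in cluster 2, 275 in cluster 5 and 313 in cluster 7. The 10 basal genes summed to 16.2, 11.9, 26.5 and 23.8 CPM from 216 UMIs, with Krt5 at 14 UMIs and Trp63 at 3 UMIs. The 10 immune genes summed to 6.02, 7.11, 25 and 10.6 CPM from 135 UMIs, of which Cd74 gave 59, with the leukocyte marker Ptprc and the T cell marker Cd3e at 0. The 6 fibroblast genes gave 48 UMIs, 40 of them of Dcn, with Pdgfra and Lum at 0, and the 6 endothelial genes gave 20, with Emcn and Tie1 at 0. In scores for doublets, ranked in each library, the top 6% of cells held 6.27% of cluster 6, 2.70% of cluster 5, 3.59% of cluster 7 and 9.58% of cluster 2.

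Within cluster 6 nearly every cell passed the level of the G2 and mitosis list in cluster 7, and a minority passed that of the S phase list. After thinning to 2000 UMIs, which left out 73 shallower cells, 1729 cells remained, and the limit of each list was the level that 95% of thinned cluster 7 cells did not pass, 4 UMIs for the S phase list and 6 for the G2 and mitosis list. Over the G2 and mitosis limit were 96.5% of the cells (95% interval 95.5 to 97.3), and over the S phase limit were 25.9% (23.9 to 28.0). The latter share depends on the setting, with 12.4% when the limit was set at 99% of cluster 7 cells and 38.9% when cells were thinned to 3000 UMIs. Only the G2 and mitosis list was over its limit in 70.8% of the cells, both lists in 25.7%, only the S phase list in 0.231% (4 cells) and neither in 3.30% (57 cells). These classes are ranges of a score, and 204 cells stood at the S phase limit and 134 at 1 UMI above it, against 27 and 32 cells for the G2 and mitosis limit.

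The median cell of cluster 6 had 3 S phase and 21 G2 and mitosis UMIs, and the middle 50% of cells had 13 to 32 of the latter. In cluster 5 the medians were 9 and 7 UMIs, in cluster 2 they were 6 and 23, and in cluster 7 they were 1 and 3. Both lists were over their limits in 50.5% of the 1405 cells of cluster 5 and 58.3% of the 793 cells of cluster 2. Only the S phase list was over its limit in 36.4% of the cells of cluster 5. In the libraries of cluster 6 the share of cells over the G2 and mitosis limit was 96.3%, 96.2%, 96.2% and 97.2%, and the share over both limits was 24.9%, 27.4%, 24.9% and 25.5%. G2 and mitosis shares this near to all cells cannot show a difference in level, and the median cell had 22 G2 and mitosis UMIs in WT and 20 in the mutant.

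**Figure D4:**
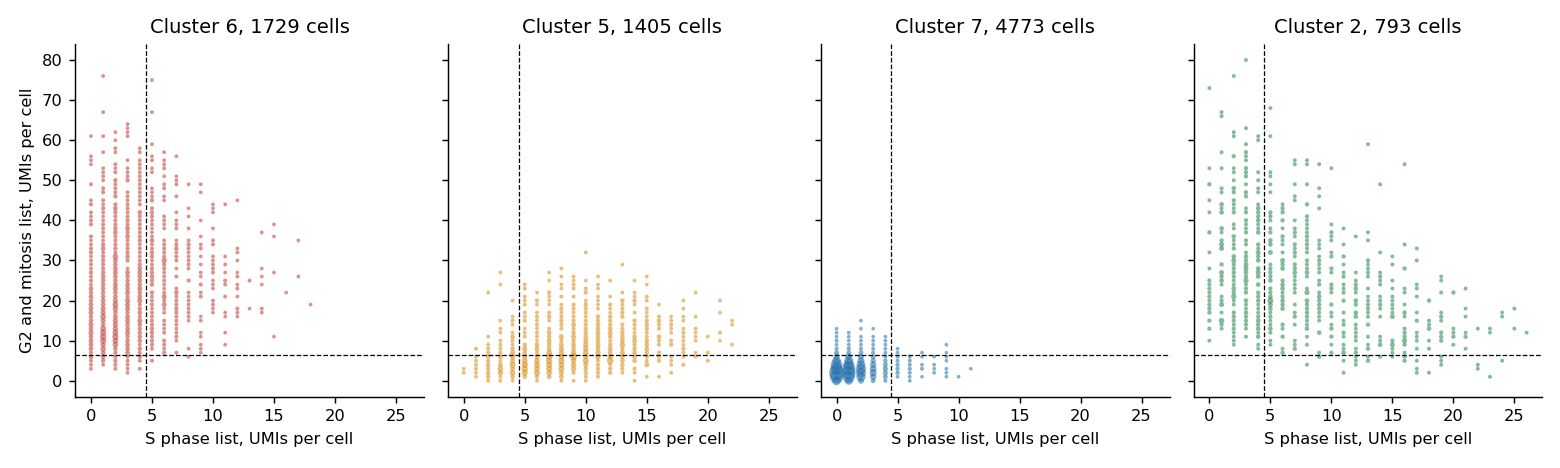
Cells of clusters 6, 5, 7 and 2 thinned to 2000 UMIs, with larger points for larger shares of a cluster's cells, UMIs of the S phase list on the x axis and of the G2 and mitosis list on the y axis, and the limits from cluster 7 as lines. Most cluster 6 cells lie high and left, with a median of 3 and 21 UMIs, while cluster 5 has a median of 9 and 7.

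The 444 cells over both limits and the 1224 cells over the G2 and mitosis limit alone are described without a test, as list genes chose them. The cells over both limits had more UMIs, a median of 6019 against 4835.5. Top2a was at 679 CPM in them and 401 CPM in the others, Mki67 at 213 and 143 CPM, and Pclaf, a PCNA associated factor, at 367 and 163 CPM. Esco2 was at 66.2 against 15.5 CPM and Hist1h1b, a linker histone, at 95.2 against 21.8 CPM. The whole G2 and mitosis list summed to 12922 against 11805 CPM, and its members differed in both directions. Cenpa was at 527 against 775 CPM, Ccnb2 at 412 against 578 and Cdc20 at 435 against 562 CPM. Aurka, a mitotic kinase, was at 213 against 145 CPM, Plk1 at 182 against 145, Ccna2 at 178 against 127, Ccnb1 at 153 against 135 and Ube2c at 1009 against 976 CPM.

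Between these sets of cells the mature luminal list stood at 14261 and 13270 CPM and Cited1 at 2201 and 2035 CPM, and Sprr1a stood at 9.88 against 38.2 CPM. Fgb, a fibrinogen chain, was at 1486 against 1093 CPM. The basal list summed to 34.9 CPM in the cells over both limits and 13.6 CPM in the others, with 19.3, 11.9, 52.0 and 59.6 CPM against 15.6, 10.5, 17.8 and 10.6 CPM in WT A, WT B, V943R A and V943R B, and its part in the differences was not tested. The 61 cells at or under the G2 and mitosis limit kept the class markers, with Cited1 at 2067 and Upk3a at 5749 CPM. Their G2 and mitosis list summed to 3974 CPM.

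The genotypes were compared within cluster 6 to show whether mutant cells of this state differed in expression. Erbb3 itself (chr10:128567523-128589652, minus strand) stood at 42.5 and 61.0 CPM in WT A and WT B and at 26.8 and 32.6 CPM in V943R A and V943R B. This is 293 against 163 UMIs and a log2 ratio of -0.81 (-1.10 to -0.53). Without WT B it was -0.52, which is under the 1.5-fold limit used below. The ratio was -1.10 in cluster 7, -0.86 in cluster 5 and -1.21 in cluster 2. The altered codon cannot be read from these values, so they do not check the allele. Erbb2, the main partner receptor, was at 45.6, 45.4, 41.7 and 47.3 CPM, with a ratio of -0.03 and overlapping libraries.

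A gene was called between genotypes at 1.5-fold or more, with 50 or more UMIs on the higher side, where no library of one genotype reached into the range of the other. Of 9373 genes 198 (2.11%) were called higher and 112 (1.19%) lower in the mutant, and the median log2 ratio of all was -0.02. Without V943R A 100 were called higher and 199 lower, and without V943R B 186 and 230. Without WT A they were 352 and 83, and without WT B 327 and 52. Leaving out a library lowers the UMIs counted toward the minimum of 50 on its side and eases the rule on overlap. The counts therefore cannot show whether the balance rests on single libraries. Beside these, the median depth of cluster 6 cells was 4703.5 UMIs in WT and 5477.5 in the mutant, the basal list summed to 13.9 and 25.2 CPM and the immune list to 6.6 and 17.9 CPM, and their part in the ratios was not tested.

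The shares of cycle genes called were near those of all genes, 2.11% higher and 1.19% lower, so they are not a result about these genes. Of 54 G2 and mitosis genes 1 was called, Ttk, a spindle checkpoint kinase, at 21.8, 16.9, 13.4 and 12.1 CPM (log2 ratio -0.59), which was also the 1 of 18 kinetochore and checkpoint genes called. The list had a median of -0.13, with 7 genes above 0, and its sums of 12421 and 12174 CPM in WT and 11103 and 11717 CPM in the mutant did not overlap. Of 38 S phase genes none was called, with a median of -0.09. The S phase sums, 1794 and 1824 CPM in WT and 1699 and 1665 CPM in the mutant, did not overlap either. The kinetochore and checkpoint list had 0 of 18 genes above 0 and a median of -0.17. Its sums were 3605 and 3563 CPM in WT and 3159 and 3267 CPM in the mutant. Histone sums, 2116 and 2040 CPM in WT and 1973 and 2063 CPM in the mutant, overlapped. The transcription factor sums were 468 and 473 CPM in WT and 475 and 474 CPM in the mutant. None of the 12 mitotic cyclins and kinases, 17 condensin and cohesin, 19 nucleotide synthesis, 16 histone, 12 transcription factor and 11 CDK inhibitor genes tested was called. Mki67 had a ratio of -0.13, Top2a of -0.10 and Ccnd1 of -0.01.

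Of 32 replication licensing and fork genes 1 was called higher and 1 lower, and of 6 G1 cyclins and kinases 1 was called lower, counts too small to set against the shares of all genes. Ccne1 had a log2 ratio of -0.86 (-1.35 to -0.39) in cluster 6, with 18.8 and 19.6 CPM in WT and 12 and 9.16 CPM in the mutant. Its ratio was 0.12 in cluster 7, 0.18 in cluster 5 and -0.07 in cluster 2, and the difference between clusters was not tested. Esco2 stood at 36.5, 35.6, 19.9 and 27.1 CPM, a ratio of -0.61. The origin recognition subunits Orc4 and Orc3 went opposite ways, at 0.69 and -0.78. Counts this small, 80 UMIs for Orc3 and 155 for Orc4, leave wide intervals, -1.49 to -0.10 and 0.21 to 1.19.

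Identity genes had small ratios. None of 12 mature luminal genes was called, with a median of 0.03, yet Cited1 and Upk3a had ratios of -0.41 (-0.45 to -0.37) and -0.29 (-0.31 to -0.27), with no overlap of the libraries. For Upk3a the ratio was -0.51 in cluster 7, -0.29 in cluster 5 and -0.42 in cluster 2, and for Cited1 -0.44, -0.34 and -0.14. Esr1 had a ratio of 0.02, Pgr 0.20 and Areg 0.26. Krt8, a luminal keratin, stood at 800, 780, 1236 and 1060 CPM, a ratio of 0.54 that missed the fold. Ltf, lactoferrin, was the 1 of 8 progenitor genes called, at 15.4, 12.5, 5.44 and 8.80 CPM (-0.97). The list had a median of 0.12 with 5 of 8 genes above 0, and without WT A or without WT B none of it was called lower.

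Of the ERK feedback genes 1 of 8 tested was called, and of the stress genes 1 of 10, both against the direction of their lists. Such counts, and the 1 of 19 ribosome biogenesis genes below, are too small to set against the 2.11% of all genes called higher. The ERK feedback list had a median of -0.20 with 2 of 8 genes above 0 and summed to 460 and 479 CPM in WT and 404 and 386 CPM in the mutant. Its called member, Spry1, was at 10.9, 12.5, 19.6 and 18.3 CPM, which is 0.69 (0.23 to 1.16) on the log2 scale. The stress list had a median of -0.18 with 2 of 10 genes above 0 and summed to 15147 and 15945 CPM in WT and 13366 and 14618 CPM in the mutant, without overlap, and its part in the other genotype ratios was not tested. Its called member, Hspa1b, a heat shock protein, had a ratio of 0.59, and Fbl, a nucleolar methyltransferase, had 0.73 as 1 of 19 ribosome biogenesis genes. A list of 10 genes that the study names for cluster 11 mixes genes high and genes low there. Of it Tmem86a, named as low in cluster 11, was called lower in cluster 6 than in cluster 7 (-1.22), and Wdfy1, also named as low there, had a genotype ratio of 0.61 with 608 UMIs. The study chose those 10 genes on these samples, so they are no independent evidence of a direction.

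The largest genotype ratios were of genes with few UMIs. Cdk5rap1, an RNA modifying enzyme of mitochondria, stood at 5.65 and 7.79 CPM in WT and 24.3 and 28.6 CPM in the mutant, a log2 ratio of 1.96 (1.44 to 2.52). Slc15a2, a peptide transporter, followed at 1.81, Krt77, a keratin, at 1.73 from 3.01, 6.77, 10.9 and 22.4 CPM, Gm9513 at 1.59 and Clca1, a secreted protein of the chloride channel regulator family, at 1.26. In cluster 7 Cdk5rap1 had a ratio of 1.68, Slc15a2 of 1.82, Krt77 of 0.72 and Gm9513 of 1.36. The libraries of a genotype lay close for Cdk5rap1 and farther apart for Krt77. With 1 library left out the cluster 6 ratio ran from 1.12 to 2.46 for Krt77 and from 0.80 to 1.86 for Clca1.

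Lower in the mutant were Lrg1, a secreted glycoprotein of TGF beta signalling, at 21.1 and 22.7 CPM in WT and 9.07 and 6.96 CPM in the mutant, a log2 ratio of -1.45 (-1.98 to -0.94). Degs1, a ceramide desaturase, stood at 15.8, 13.9, 6.17 and 4.76 CPM, a ratio of -1.44. Fah, an enzyme of tyrosine breakdown, had a ratio of -1.21, C130074G19Rik of -1.22 and Zfp979, a zinc finger protein, of -1.17. With 1 library left out C130074G19Rik ran from -1.63 to -0.70 and Zfp979 from -1.36 to -0.91. In cluster 7 the ratios were -1.15 for Lrg1, -1.39 for Degs1, -0.34 for Fah and -0.71 for Zfp979. All comparisons of genotype use the same pools, so the clusters are not independent of each other.

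**Figure D5:**
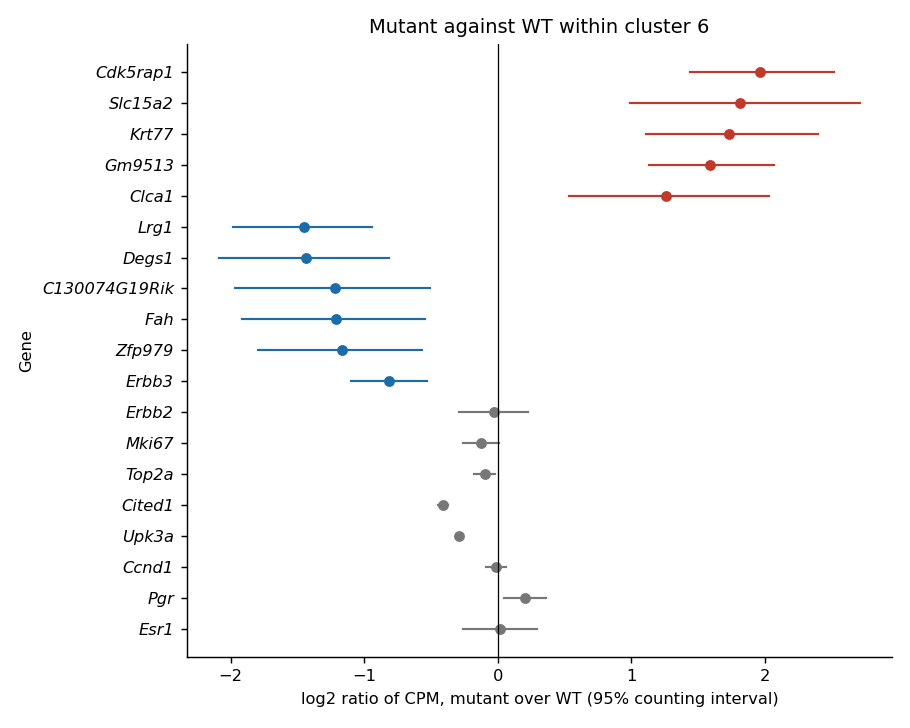
Log2 ratio of CPM, mutant over WT, on the x axis with 95% counting intervals for genes of cluster 6 on the y axis, red where called higher, blue where called lower and grey where not called. Cdk5rap1 lies farthest to the right at 1.96 and Lrg1 farthest to the left at -1.45, while Mki67 and Top2a lie close to 0.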

How the data were processed

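Single cell 3′ RNA was measured in 4 libraries, 2 per genotype. Per the submitters' processing notes bcl2fastq 2.20, CASAVA 1.8 and GSNAP with GRCm38 were used, and the study's methods give Seurat in Partek Flow (resolution 0.6) for the clusters. The authors deposited a signal, which is the UMIs of a cell times 1 factor, summing to 3516 to 3726 per cell. UMIs were recovered by taking the lowest value above 0 in a cell as 1 UMI, and all values then lay within 0.009891 of a whole number. As the deposited unit is a signal, no count model was fitted, and no p-value is given. The 52636 genes were matched to GENCODE M21 by identifier (52489 matched).

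UMIs were summed per cluster and library and divided by their total to give CPM. Intervals at 95% are exact conditional binomial for log2 ratios, log-normal for ratios of shares and Clopper-Pearson for the shares. Doublets were scored with scrublet in scanpy 1.11.5, which called 6 cells (0.0185%) and so did not work as a caller, and none was removed. Other steps used Python 3.11.15, numpy 2.4.6, pandas 2.3.3, scipy 1.17.1 and matplotlib 3.10.9. The call rule was also run on simulated data, with an outcome that is not reported here. Those data had no variation between libraries beyond counting error, so they cannot show how the rule performs under such variation.

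Named were the 4 markers, the 10 genes with the largest ratio in each direction between clusters (5 between genotypes), up to 4 genes with the most UMIs and 4 called genes per direction of each of 22 lists (324 genes, of which 1 symbol was not in the table), Erbb2, Erbb3, the D-type cyclins and CDK inhibitors, Esr1 and Pgr. Genes of the lists named beside these, the histone genes, Trmt12, and the cells behind Ccnd2 were chosen after their values were seen. The cluster, lists and markers were chosen with earlier results of these data known. Alternatives were other minimums of UMIs, TMM factors, means over cells, another fold, no rule on libraries, leaving out each library, removal of high doublet scores, other denominators, depths of thinning and limits. Some genes that this rule picks are not reported here.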

Additional observations from a re-analysis of the deposited data

Results flagged for a closer look

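Trmt12, a tRNA modifying enzyme, was called higher in the mutant within cluster 6 and lower in the mutant within cluster 5. In cluster 6 the libraries WT A, WT B, V943R A and V943R B stood at 7.91, 6.77, 13.4 and 9.53 CPM, which gives a log2 ratio of 0.65 from 41 WT and 63 mutant UMIs. In cluster 5 they stood at 10.6, 13.3, 7.25 and 8.61 CPM, with a log2 ratio of -0.59 from 53 and 31 UMIs. In cluster 7 they stood at 11.1, 10.3, 8.27 and 8.36 CPM, and in cluster 2 at 14.9, 6.15, 19.5 and 16.6 CPM. It was singled out because every mutant library moved one way in cluster 6 and the opposite way in cluster 5. The difference between the clusters was not tested, and the counts are small.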

How the results depend on the processing

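No called gene was called in the other direction under any alternative run. Of 112 values of the main results under alternatives, 80 stayed within the limits set for them. So did 1553 of the 1650 values of single genes and lists. Other minimums of UMIs, another fold and no rule on libraries leave the ratio of a gene as it is. Under those alternatives the ratios of single genes could not change direction or leave their limits. With a minimum of 200 UMIs the genes higher and lower in cluster 6 were 349 and 61 against cluster 7, 109 and 94 against cluster 5, 464 and 332 against cluster 2, and 36 and 10 between genotypes, where the share higher among calls went from 63.9% to 78.3%. With a minimum of 20 UMIs they were 260 higher against cluster 5, and 516 and 299 between genotypes. With a fold of 1.5 between clusters and 2 between genotypes the counts were 1120 and 468 against cluster 7, 480 and 374 against cluster 5, 1242 and 1687 against cluster 2, and 22 and 15 between genotypes. TMM factors gave 208 genes lower than in cluster 7, and 935 higher and 811 lower against cluster 2, and moved the median log2 ratio of all genes from 0.05 to -0.07 there and from -0.10 to 0.03 against cluster 2.

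Leaving out 1 library gave 100 to 352 genes higher and 52 to 230 lower in the mutant, namely 352 and 83 without WT A, 327 and 52 without WT B, 100 and 199 without V943R A, and 186 and 230 without V943R B. Of 198 genes called higher, 160 were called again without WT A, 147 without WT B, 61 without V943R A and 79 without V943R B. Of 112 called lower, 35, 24, 82 and 83 were called again in the same order. Leaving out a library also lowers the UMIs counted toward the minimum on its side, which weighs on these counts. The ratio of the mutant to the WT share was 1.02 outside cluster 11. The share of cells over the G2 and mitosis limit was 87.9% at 1000 UMIs, 98.2% at 3000 UMIs and 89.4% with the limit at 99% of cluster 7, and over the S phase limit 38.9% at 3000 UMIs and 12.4% with the limit at 99%. The cause was not tested. No paired analysis was made, because the labels state no pairs between WT and mutant libraries and no test was made. The deposited values also name their libraries without the replicate numbers of the labels.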
